A study of Mus musculus with 17 samples.

Results

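Vip interneuron nuclei were described here in a single-nucleus RNA sequencing experiment (sNucDrop-seq) on the neocortex of mice exposed to chronic unpredictable stress (CUS). The nuclei were chosen by their own transcripts, counted as unique molecular identifiers (UMIs). A barcode was kept with 600 to 5000 detected genes and under 5% mitochondrial UMIs. A kept barcode was called a Vip nucleus when it held at least 1 UMI of Gad1 or Gad2, at least 1 of Vip, at least 1 of Adarb2, none of Sst, Pvalb, Ndnf and Rgs9, and at most 1 of Slc17a7. Of 40000 barcodes in the tables, 31611 had 600 to 5000 genes and 31486 passed both filters. Of those, 8502 held a Gad1 or Gad2 UMI, 480 also held a Vip UMI and 364 an Adarb2 UMI as well. The excluded markers left 291, and the limit on Slc17a7 left 288 Vip nuclei.

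Vip interneurons are inhibitory neurons of the cortex that arise in the caudal ganglionic eminence, sit mostly in the superficial layers and release GABA together with the vasoactive intestinal peptide that Vip encodes. They are known for contacting other interneurons, above all somatostatin cells, and so for relieving pyramidal neurons of inhibition. Acetylcholine and serotonin excite them through receptor channels, among them the Htr3a channel, and they respond to arousal and reinforcement. Classical anatomy divides them into small cells that also hold cholecystokinin (Cck) and bipolar cells that hold calretinin (Calb2).

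The nuclei came from 4 control and 4 CUS mice, male C57BL/6 animals (substrain C57Bl/6J in the study's methods) labelled postnatal day 80. CUS mice received 3 unpredictable stressors a day for 12 days, and the neocortex was taken 24 hours after the last stressor. Controls were handled daily and lived in another room, so room and stress cannot be told apart. In other male mice labelled postnatal day 90, of which 4 were controls and 5 had gone through the same 12 days of CUS, the nuclear RNA of the medial prefrontal cortex (mPFC) was sequenced in bulk. By the study's methods those mice had also undergone behavioral tests, and their tissue was collected a day after the last test rather than after the last stressor. The study ran the nuclei in 2 batches of 2 control and 2 CUS mice, but the sources used here do not say which mouse was in which batch. A batch effect was therefore not tested. The median mitochondrial share of kept nuclei was 0.27 to 0.41% in control replicates 1 and 4 and CUS replicates 1 and 2. It was 0.52 to 0.64% in the other mice, and whether this split follows the batches was not tested.

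The control mice gave 31, 46, 42 and 23 Vip nuclei (142 in all) and the CUS mice 40, 30, 31 and 45 (146). Their UMIs summed to 41038 to 135952 per mouse. No barcode was a member in more than 1 library, and 1 member barcode was also kept in another library, among 27 kept barcodes shared between libraries. Between pairs of libraries within a group, chi-square over degrees of freedom was 1.31 to 1.85. It compares sums over different nuclei, so it cannot tell whether 2 libraries came from 1 mouse. Bulk libraries held 26188825 to 30525015 reads on genes.

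The Vip nuclei were shallow and carried Vip in uneven amounts. A nucleus held a median of 1600.5 UMIs (range 769 to 13865) on a median of 1080.5 genes. Vip UMIs per nucleus ran from 1 to 49 with a median of 7 and a mean of 10.1, and 42.7% of the nuclei held 10 or more. Adarb2, which encodes an RNA-binding relative of the RNA-editing enzymes and is a standard label of interneurons from the caudal eminence, had a median of 9 UMIs (range 1 to 103). Gad1 and Gad2, the enzymes that make GABA, were detected in 58.3% and 78.5% of the nuclei. Levels below are CPM, the UMIs of a gene per 1000000 UMIs of the same mouse's nuclei of that kind, given as mean ± SD over the 8 mice unless a group is named. Vip stood at 4874 ± 1012 CPM. By mouse it was 5633, 3965, 4516 and 4947 CPM in controls and 3868, 3838, 5622 and 6604 CPM in CUS mice, so that the groups overlapped. In excitatory nuclei (at least 2 Slc17a7 UMIs and no Gad UMI) it was at 6.71 CPM, and 2.17% of them held a Vip UMI. Vip is part of the definition, so these levels describe the choice of nuclei.

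The edge of the definition can be read from a gene that it did not use. Prox1, a homeobox factor that interneurons from the caudal eminence need, was at 340 CPM in the 250 Vip nuclei with 2 or more Vip UMIs, of which 44.0% held it. In the 38 nuclei admitted on a single Vip UMI it was at 192 CPM and in 23.7%. Just outside the definition, Prox1 was at 266 CPM in 46 nuclei turned away for 1 UMI of Sst, Pvalb, Ndnf or Rgs9, and at 253 CPM in 114 that lacked only a Gad UMI. It was at 62.6 CPM in 971 nuclei without a Vip UMI and at 16.0 CPM in 50 without an Adarb2 UMI. Only 2 nuclei were turned away for a second Slc17a7 UMI alone. Vip, which these nuclei also had to hold, averaged 11.0 UMIs in those 46 nuclei and 7.31 in those 114, beside 11.5 in the members with 2 or more. The definition therefore left out nuclei that resemble its members in Prox1, but less so in Igf1, which it did not use either. Igf1 was at 435 CPM in members with 2 or more Vip UMIs and at 168 CPM in those with 1. It was at 218 CPM in those 46 nuclei and at 203 CPM in those 114. A Vip UMI was present in 891 kept nuclei in all, 411 of them without a Gad UMI.

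Markers that the definition did not use set these nuclei apart from 4 other gates drawn from the same barcodes, and the label Vip interneuron held against them. The other gates were Sst (943 nuclei), Pvalb (455), Ndnf (132, also required to hold Adarb2) and excitatory (2816). These comparisons describe nuclei sorted by their own transcripts and carry no test. Prox1 was at 311 ± 88.9 CPM and in 41.3% of the Vip nuclei, against 149 CPM in Ndnf nuclei, 13.6 in Sst, 10.5 in Pvalb and 3.88 in excitatory nuclei. It was higher in Vip nuclei than in every other gate in 8 of 8 mice. Igf1, the growth factor that Vip cells secrete, was at 398 ± 145 CPM and in 46.5% of the nuclei, against 149 CPM in Ndnf nuclei and 47.5 in Sst nuclei, and led in 7 of 8 mice. Htr3a, the subunit of the serotonin-gated channel, was at 82.5 ± 27.6 CPM and reached 1.36 CPM in Sst nuclei, the highest of the other gates. Cnr1, the cannabinoid receptor of cholecystokinin-bearing terminals, stood at 662 ± 131 CPM against 230 in Ndnf nuclei and led in 8 of 8 mice. The transcription factors Npas1 (91.4 CPM) and Sp8 (20.3 CPM) had their highest other levels in Sst (39.1 CPM) and Ndnf nuclei (1.92 CPM). Nr2f2 was no higher here (61.0 CPM) than in Ndnf nuclei (83.2 CPM).

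**Figure D1:**
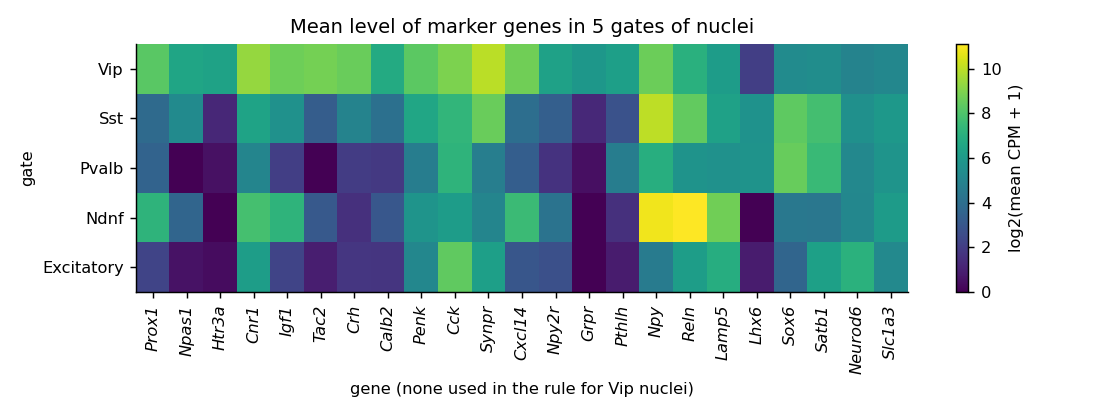
Mean level over 8 mice of 23 marker genes (columns) in 5 gates of nuclei (rows), as log2 of the mean CPM plus 1, shown by colour. Prox1, Htr3a, Tac2, Crh and Synpr are brightest in the Vip row, Npy and Reln in the Ndnf row, and the Vip row is dark for Lhx6, which had 2 UMIs in 288 nuclei.

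Genes of other lineages were read in the Vip nuclei to differing degrees. Lhx6, the factor that directs interneurons of the medial eminence, had 2 UMIs in the 288 nuclei (3.14 CPM), against 49.4 CPM in Sst and 50.8 CPM in Pvalb nuclei. Sox6, its partner in that lineage, was at 40.0 CPM against 330 and 368. Npy and Reln, which mark neurogliaform cells, were at 393 and 130 CPM against 1869 and 2215 CPM in Ndnf nuclei. Neurod6, a factor of excitatory neurons, was at 30.5 CPM against 136 CPM in excitatory nuclei. The whole list of 11 excitatory markers was closer, with a sum of 1154 CPM against 2255 CPM. The 6 microglia markers summed to 47.5 CPM, beside 41.6 CPM over all kept nuclei. The 6 oligodendrocyte markers summed to 656 CPM, beside 836 CPM over all kept nuclei and 336 CPM in excitatory nuclei. By mouse they ran from 252 CPM in CUS replicate 4 to 1163 CPM in CUS replicate 1. The share of the Vip nuclei with a Scrublet doublet score above 0.2 was 0 to 23.9% per mouse.

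Among genes of at least 100 CPM, Tac2 and Crh, both neuropeptide genes, had the highest ratios of Vip nuclei to the other gates. Htr3a, below that level, had a ratio of 60.7 (to Sst nuclei). Among the 2033 genes outside the definition with at least 100 CPM, the 12 with the highest ratio to the next gate included 3 neuropeptide genes (Tac2, Crh and Penk). Tac2, which encodes neurokinin B, was at 438 ± 206 CPM, 50.6 times its level in Sst nuclei, the next gate. Crh, the corticotropin-releasing hormone that also starts the hormonal stress response in the hypothalamus, was at 381 ± 149 CPM and 12.4 times its level in Sst nuclei. Calb2, the calcium buffer calretinin, was at 111 ± 61.2 CPM (ratio 6.87), and Penk, the enkephalin precursor, at 314 ± 146 CPM (ratio 3.36). Other members of the 12 were Cbln2, a secreted synapse organizer (194 CPM, ratio 7.05), the glycerol phosphate dehydrogenase Gpd1 (111 CPM, 4.41), the G-protein regulator Rgs12 (380 CPM, 3.89), Slc44a5 (244 CPM, 3.53), the kinase Prkd1 (122 CPM, 3.39), the interneuron homeobox gene Dlx1 (251 CPM, 3.27), Fxyd6 (289 CPM, 3.25) and Gm5087 (139 CPM, 3.21). The 12 were chosen by this ratio, so their values describe the choice.

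Further genes filled out the picture of receptors and secreted products. Synpr, a synaptic vesicle protein, was at 1012 ± 173 CPM and in 74.7% of the nuclei, against 386 CPM in Sst nuclei. The chemokine Cxcl14 was at 420 ± 137 CPM against 190 CPM in Ndnf nuclei. Grpr, the receptor of gastrin-releasing peptide, was at 58.1 CPM and listed at 0 in Ndnf and excitatory nuclei. Cck was at 490 ± 320 CPM and in 34.4% of the Vip nuclei, but excitatory nuclei also held it at 338 CPM. The mineralocorticoid receptor Nr3c2, which binds corticosterone, was at 401 ± 132 CPM, against 185 CPM in Ndnf nuclei. Chat, the acetylcholine synthase that some Vip cells express, was found in 7 nuclei (10.8 CPM).

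Calb2 and the peptide genes divided the Vip nuclei only in part. Of Calb2, Cck, Crh and Tac2, none was detected in 89 nuclei (30.9%), 1 in 101 (35.1%), 2 in 65 (22.6%), 3 in 29 (10.1%) and all 4 in 4 nuclei (1.39%). A missing transcript in a nucleus of this depth does not mean a gene that is off. Detection also follows depth, since nuclei with a Cck UMI had a median of 1938 UMIs and those without 1470. Pairs of genes were therefore also compared after each nucleus was thinned at random to 1000 UMIs, which left out 29 shallower nuclei (11 of control and 18 of CUS mice) and kept 259. These shares across nuclei are descriptions without a test.

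Tac2 and Crh went together. Crh was detected in 52 of 98 nuclei with Tac2 (53.1%) and in 44 of 190 without it (23.2%). After thinning the shares were 40.6% of 64 nuclei and 16.9% of 195, and Crh was more frequent with Tac2 in 8 of 8 mice both ways. Cxcl14 accompanied the same genes. After thinning it was in 57.8% of nuclei with Tac2 and 17.9% without, in 47.5% with Crh and 22.0% without, and in 50.0% with Cck and 19.6% without. The vesicle gene Synpr was in 79.7% of the thinned nuclei with Crh and 55.5% of those without, with the same direction in 8 of 8 mice.

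Tac2 and Htr3a were more frequent in nuclei with Cck than in those without it, and Penk was less frequent. Tac2 was in 41.4% of the 70 thinned nuclei with Cck and in 18.5% of the 189 without, and was more frequent with Cck in 6 of 8 mice. Htr3a was in 11 of the 70 (15.7%) and in 6 of the 189 (3.17%). Penk went the other way, in 14.3% of nuclei with Cck and 26.5% without, and was less frequent with Cck in 7 of 8 mice. Penk and Npy also kept apart, with Npy in 3 of 60 thinned nuclei with Penk (5.00%) and in 41 of 199 without (20.6%).

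Npy2r was seldom found with Crh or Tac2, on few nuclei, and Calb2 showed no such split. Npy2r, a receptor of neuropeptide Y, was in 3 of 96 nuclei with Crh (3.13%) and in 31 of 192 without (16.1%), before thinning. After thinning the contrast with Crh was smaller, at 2 of 59 (3.39%) and 18 of 200 (9.00%). With Tac2, Npy2r was in 4 of 98 nuclei (4.08%) and without it in 30 of 190 (15.8%), and after thinning in 1 of 64 (1.56%) and 19 of 195 (9.74%). Cck was in 7 of 20 thinned Npy2r nuclei (35.0%) and in 63 of 239 others (26.4%), but was less frequent with Npy2r in 5 of 7 mice. Thinned nuclei with Calb2 held Crh in 23.8% and Tac2 in 23.8%, close to the 22.7% and 24.8% of those without. Before thinning, Cck was in 10 of 41 nuclei with Calb2 (24.4%) and in 89 of 247 without (36.0%), and was less frequent with Calb2 in 7 of 8 mice. After thinning, these shares were 4 of 21 (19.0%) and 66 of 238 (27.7%), with the same direction in 5 of 8 mice.

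Whether CUS changed the number of Vip nuclei was asked of each mouse's share. Vip nuclei made up 0.899%, 0.953%, 0.847% and 1.01% of the kept nuclei in control mice and 0.986%, 0.869%, 0.860% and 0.923% in CUS mice. The groups overlapped throughout. Their means were 0.928 ± 0.0719% and 0.910 ± 0.0583% (SD, n = 4 each), a difference of -0.0187 percentage points (exact permutation test, two-sided, p = 0.686). Nuclei with a Gad1 or Gad2 UMI were 982 of 3447, 1391 of 4828, 1618 of 4959 and 633 of 2267 kept nuclei in control mice. In CUS mice they were 1136 of 4055, 829 of 3451, 866 of 3605 and 1047 of 4874. Among nuclei with a Gad UMI the Vip share was 3.17 ± 0.433% in control and 3.75 ± 0.365% in CUS mice. The difference thus changed sign with the denominator (0.581 points, exact permutation p = 0.114). With 4 mice against 4, of which 70 splits exist, this test cannot give a p below 0.0286.

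**Figure D2:**
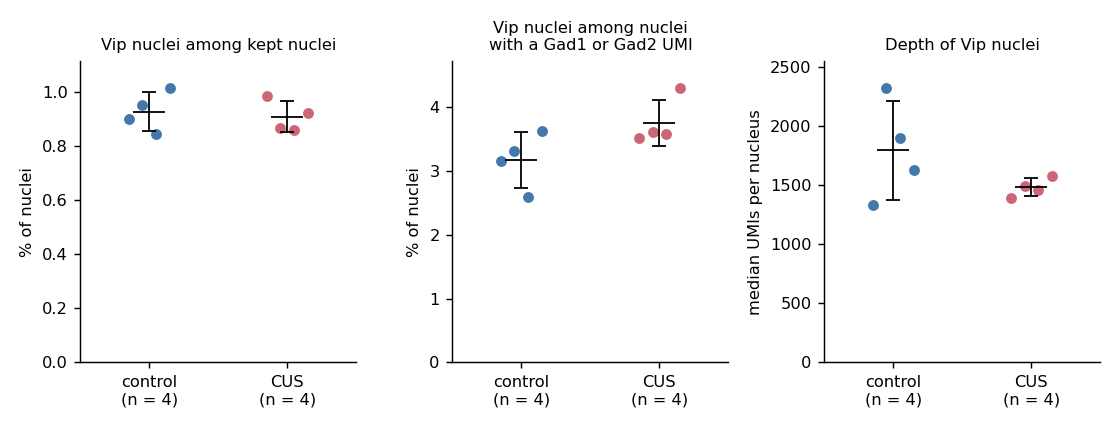
Share of Vip nuclei among kept nuclei (left, %), among nuclei with a Gad1 or Gad2 UMI (middle, %) and median UMIs per Vip nucleus (right), 1 point per mouse, with the mean and SD of 4 mice as bar and whiskers. The groups overlap in all 3 panels, and the control mice spread more widely in depth, from 1333 to 2322 UMIs.

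Depth did not differ detectably either, but it spread more among controls. The median UMIs per Vip nucleus were 1333, 2322, 1897 and 1630 in control mice and 1396, 1492.5, 1461 and 1579 in CUS mice. Control replicates 2, 3 and 4 lay above every CUS mouse, replicate 2 far above, while control replicate 1 lay below them all. The difference of -313 UMIs had an exact permutation p of 0.229. A Scrublet score above 0.2 was found in 12.0 ± 9.94% of control and 17.6 ± 1.71% of CUS members (exact permutation p = 0.343). A few members were far deeper than the rest, since 9 held over 6000 UMIs, 14.1% of all UMIs of Vip nuclei, and 7 of the 9 had a doublet score above 0.2. They numbered 5 in control replicates 2 and 3 and 4 in CUS replicates 1, 2 and 4.

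The test of single genes asked which transcripts of Vip nuclei differed between CUS and control mice. UMIs were summed per mouse, and 4461 genes were tested with the quasi-likelihood test of edgeR at a false discovery rate (FDR, Benjamini-Hochberg) of 0.2. Just 1 gene passed, Tox, which was 0.0224% of the genes tested. At an unadjusted p under 0.05 there were 194 genes, which is 4.35% of those tested and below the 5% that the threshold itself allows. In 126 genes (2.82%) the 2 groups were without overlap, beside the fraction of 0.0286 that 70 equally likely splits of the mice would give. Of the genes outside the definition that passed the unadjusted threshold, 84 were higher and 109 lower in CUS mice. The median log2 fold change was 0.01 and the median standard error 0.45, so that a gene of median precision needed a large change to be seen.

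Tox, a nuclear protein of the HMG-box family studied mostly in T cells, was at 61.0, 177, 278 and 48.7 CPM in control mice and at 25.3, 35.5, 18.6 and 63.0 CPM in CUS mice. Control replicates 2 and 3 stood high, while the others overlapped the CUS mice. Tox averaged 141 ± 108 CPM in control and 35.6 ± 19.5 CPM in CUS mice. Its log2 fold change of -2.06 ± 0.48 (SE) had an FDR of 0.191 by edgeR's quasi-likelihood test. The gene lies on mm10 chromosome 4 (6686353 to 6991557, minus strand). The call rested on few nuclei, because 25 of 288 held a Tox UMI and 43 of the 67 UMIs were in members with over 6000 UMIs. A single nucleus of control replicate 3 with 11273 UMIs held 22 of them. Without the members over 6000 UMIs, a limit chosen after the data were seen, 24 Tox UMIs were left, too few for the test, and 0 of 4049 genes passed, with 183 at an unadjusted p under 0.05. Without members of a doublet score above 0.2 the log2 fold change of Tox was -1.18 (FDR 0.999) and no gene passed. DESeq2 also called 0 genes, with 68 at an unadjusted p under 0.05. The part of doublets in the Tox difference was not tested further.

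**Figure D3:**
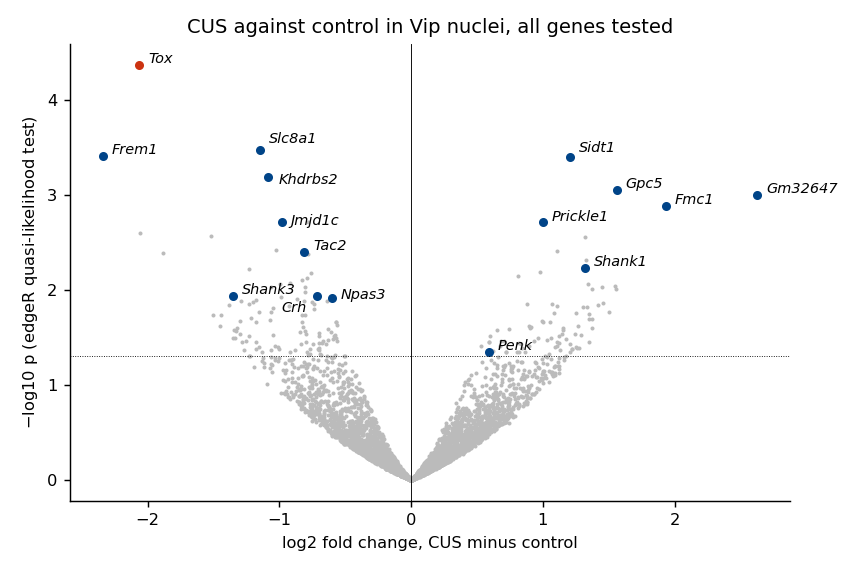
Log2 fold change of CUS against control (x axis) and −log10 of the unadjusted p (y axis) for the tested genes outside the definition in Vip nuclei, 1 point per gene, with named genes labelled and a dotted line at the 0.05 level of edgeR's test. Tox, in red, is the gene past an FDR of 0.2, at a log2 fold change of -2.06, and the blue points did not pass it.

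The other genes with the smallest p did not pass the FDR, and their values are given as measured. On the lower side, Slc8a1, a sodium-calcium exchanger of the plasma membrane, was at 285, 375, 361 and 244 CPM in control mice and at 114, 142, 205 and 147 CPM in CUS mice. The groups did not overlap, and the log2 fold change was -1.14 (standard error 0.31, FDR 0.451 by edgeR). It was -0.80 without the members over 6000 UMIs. Frem1, an extracellular matrix gene, stood at 40.7, 147, 61.9 and 97.5 CPM against 12.6, 35.5, 0 and 21.0 CPM, with 37 UMIs in all (log2 fold change -2.34). Jmjd1c, a demethylase-like chromatin gene (-0.98), was also without overlap. Khdrbs2, an RNA-binding regulator of neurexin splicing (-1.09), overlapped, and 72 of its 176 UMIs were in members over 6000 UMIs. Its value was -0.66 without those members.

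On the higher side, Sidt1, a transmembrane protein, was at 163, 118, 82.5 and 146 CPM in control mice and at 240, 373, 261 and 252 CPM in CUS mice. No CUS mouse reached down to the controls, and CUS replicate 2 stood above the rest. A single nucleus of CUS replicate 2 with 6043 UMIs held 9 of its 21 Sidt1 UMIs. The log2 fold change was 1.20 (standard error 0.33, FDR 0.451 by edgeR) and 0.96 without the members over 6000 UMIs. Prickle1, a planar polarity protein, just failed to overlap, with at most 203 CPM in control and at least 205 CPM in CUS mice (log2 fold change 1.00). Fmc1, a mitochondrial assembly factor, had a log2 fold change of 1.93 and Gm32647 of 2.63. Of the 29 UMIs of Gm32647, 15 came from a single nucleus of CUS replicate 1 with 12149 UMIs, so this value describes 1 mouse.

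**Figure D4:**
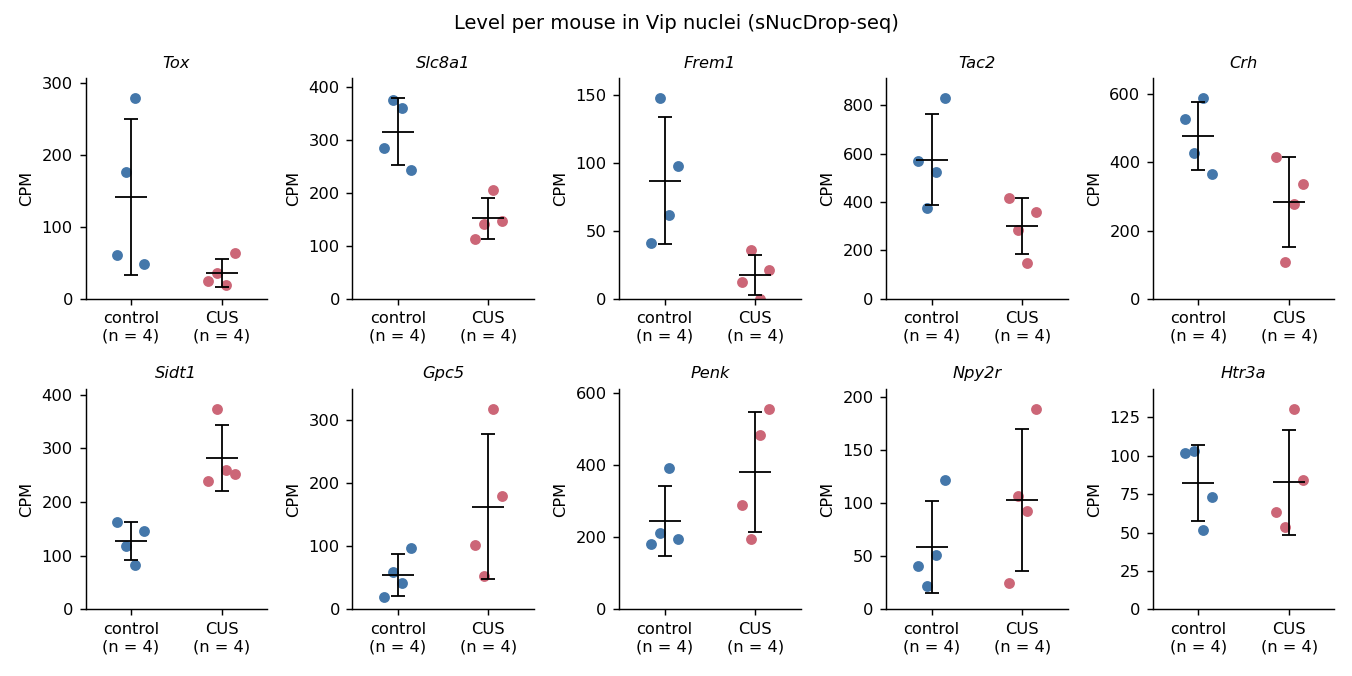
Level in CPM of 10 genes in Vip nuclei, 1 point per mouse, with the mean and SD of 4 control and 4 CUS mice. Slc8a1, Frem1 and Sidt1 do not overlap between groups, Tac2 and Crh overlap in part, and Htr3a shows the same mean level of about 82.5 CPM in both groups.

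Among the signalling peptides, Tac2 and Crh, which had the highest ratios to the other gates among genes of at least 100 CPM, had lower values in CUS mice, though neither gene passed the FDR. Of 14 listed neuropeptide genes outside the definition, 6 could be tested and 0 passed. At an unadjusted p under 0.05, Pthlh and Penk were higher and Tac2, Crh and Cck lower, against the 4.35% of all tested genes below that threshold. The median log2 fold change of the 6 was -0.59, beside 0.01 over all genes. Tac2 was at 569, 375, 526 and 828 CPM in control mice and at 417, 284, 149 and 357 CPM in CUS mice. CUS replicate 1 overlapped the controls and the other CUS mice lay below them. The log2 fold change was -0.81 (standard error 0.28, unadjusted p = 0.00401, FDR 0.984 by edgeR).

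Crh was at 529, 427, 588 and 366 CPM in control mice and at 417, 107, 279 and 336 CPM in CUS mice. Again CUS replicate 1 reached into the control range. The log2 fold change of Crh was -0.71 (standard error 0.28, FDR 0.999 by edgeR). Without the members over 6000 UMIs the values were -0.72 for Tac2 and -0.74 for Crh. Pthlh, a parathyroid hormone-like peptide, had a log2 fold change of 1.35, Penk of 0.59 and Cck of -0.57. Pthlh, Penk and Cck overlapped between groups, and Penk was at 392 CPM in control replicate 3. Cck was at 1098, 500, 608 and 195 CPM in control mice and at 417, 249, 130 and 724 CPM in CUS mice.

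Shares of nuclei with a UMI gave the same picture at equal depth, again without a call. They come from a second random thinning of the same nuclei, and small counts moved between the draws, with Htr3a in 12 nuclei here and 17 in the pairs above, and Igf1 in 69 and 85. After this thinning to 1000 UMIs, Tac2 was detected in 34.6%, 20.9%, 31.0% and 45.0% of the Vip nuclei of control mice and in 28.1%, 14.8%, 10.3% and 20% of those of CUS mice. The means were 32.9 ± 9.94% and 18.3 ± 7.63%, a difference of -14.6 points (exact permutation p = 0.0571, adjusted over 7 genes 0.3). Pooled over mice, 64 of 259 nuclei held it (24.7%, exact binomial 95% interval 19.6 to 30.4%, which covers counting error only). Crh was in 31.0 ± 5.59% and 18.6 ± 10.0% (exact permutation p = 0.0857, adjusted 0.3). Background was low for both, at 0.144% and 0.180% of excitatory nuclei thinned to the same depth. Before thinning, Crh was in 40.2% and 26.2% and Tac2 in 41.4% and 26.8%, each with the smallest exact permutation p that the design allows (0.0286, adjusted 0.1). Unthinned shares also follow depth. Synpr, outside those 7 genes, was in 80.0% and 68.7% before thinning, with the same unadjusted exact permutation p of 0.0286. At equal depth it was in 61.1% and 62.3% (exact permutation p = 0.857).

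The other genes that divide or identify Vip cells showed less. In thinned nuclei Calb2 was in 8.61 ± 4.44% of control and 11.0 ± 5.87% of CUS nuclei (adjusted exact permutation p = 0.667), Cck in 26.6 ± 7.28% and 23.7 ± 11.8% (adjusted 0.743), Igf1 in 29.2 ± 11.2% and 25.5 ± 8.63% (adjusted 0.667) and Prox1 in 21.5 ± 6.42% and 29.5 ± 7.16% (adjusted 0.333). Htr3a was in 2.14 ± 1.59% and 7.11 ± 7.42% (adjusted 0.5), with CUS replicate 3 at 17.2%. Cck is no clean measure of Vip cells, since 27.2% of excitatory nuclei thinned to the same depth held it. As summed counts, Prox1 had a log2 fold change of 0.19, Igf1 of -0.06, Htr3a of -0.04 and Calb2 of 0.60. Of the 13 tested genes of the 18 listed for the Vip subclass outside the definition, 0 passed the FDR.

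Receptors for peptides were mixed. Of 20 listed, 7 were tested and 0 passed, and their median log2 fold change was 0.65. The neuropeptide Y receptors Npy2r (1.13) and Npy1r (0.67) had positive and Npy5r (-1.35) negative values. Npy2r was at 40.7, 22.1, 51.6 and 122 CPM in control and at 25.3, 107, 93.1 and 189 CPM in CUS mice, which overlap widely. Receptors and enzymes of acetylcholine, serotonin and noradrenaline numbered 25, of which 8 were tested and 0 passed. Beside 2181 of all 4457 tested genes outside the definition, 7 of the 8 had negative values (median -0.20). The nearest to the threshold were Htr1f (-1.03), a serotonin receptor, Adra1a (-0.50), a noradrenaline receptor, and Chrm3 (-0.27), a muscarinic acetylcholine receptor.

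Genes of the stress hormone pathway did not pass either. Of 17 corticosteroid receptors and chaperones, 13 were tested and 0 passed (median log2 fold change -0.02). Nr3c2 was at 366, 471, 557 and 536 CPM in control mice and at 202, 480, 242 and 357 CPM in CUS mice. CUS replicate 2 lay among the controls and the others below them, and the log2 fold change was -0.61 (standard error 0.27, FDR 0.999 by edgeR). The heat shock co-chaperone Dnaja1 (0.74) just failed to overlap, with at most 113 CPM in control and at least 114 CPM in CUS mice. Hspa4, another chaperone, had a value of -0.51. Among 20 glucocorticoid-induced targets, 4 were tested and 0 passed. Fkbp5, the best known of them, was too sparse to test, with 27 UMIs in 23 nuclei.

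Activity and synapse genes were likewise without a call. Of 44 activity-regulated genes, 10 reached the filter and 0 passed (median -0.06). Vgf, a secreted peptide precursor, had a log2 fold change of 0.82, the peptide convertase Pcsk1 of -0.95 and the splicing regulator Mbnl2 of -0.31. Of 34 genes of glutamate receptors and excitatory synapses, 29 were tested and 0 passed. Their smallest p belonged to 2 scaffold genes with opposite signs, Shank1 (1.32) and Shank3 (-1.35). Shank1 was at 40.7, 51.5, 51.6 and 48.7 CPM in control and at 202, 107, 74.5 and 105 CPM in CUS mice, without overlap. Shank3 was at 163, 80.9, 72.2 and 195 CPM in control and at 88.5, 53.3, 18.6 and 10.5 CPM in CUS mice, and CUS replicate 1 overlapped. The glutamate receptor Grm8 had a value of 0.54.

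Genes of inhibitory synapses had mostly negative values, with 0 members below an unadjusted p of 0.05. Of 22 listed, 18 were tested and 13 had negative values (median -0.14). Over all 4457 tested genes outside the definition, 2181 had negative values and the median was 0.01. Gphn, the scaffold of inhibitory synapses, had a log2 fold change of -0.43, Nrxn3, a presynaptic adhesion protein, of -0.32, and Lhfpl4, a partner of GABA-A receptors, of 0.63. The 9 genes of Yy1, Ctcf and cohesin, which shape chromatin loops, were all tested. Of these, 8 had negative values (median -0.21) and 0 an unadjusted p under 0.05. Nipbl, the cohesin loader, was at 366, 405, 361 and 487 CPM in control and at 316, 284, 261 and 346 CPM in CUS mice, without overlap (log2 fold change -0.39). Ctcf had a value of -0.42 and Stag2 of 0.42.

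Transcription factors of the interneuron lineage showed no call. Of 18 listed, 9 were tested and 0 passed (median 0.14). Npas3, which was at 1235 CPM and higher in Vip nuclei than in every other gate in 8 of 8 mice, had a log2 fold change of -0.60 (unadjusted p = 0.0121). Sox2 (0.77) and Npas1 (0.65) had positive values. The remaining lists also held 0 called genes, with 8 of 16 tested for insulin-like growth factor signalling (median 0.08), 4 of 8 for neuregulin signalling (-0.09) and 3 of 5 outside the definition for GABA synthesis and uptake (-0.18). Among the 12 genes with the highest ratio to the next gate, Rgs12 had a log2 fold change of -0.76 and Slc44a5 of -0.80. Slc44a5 just failed to overlap, with at least 264 CPM in control and at most 261 CPM in CUS mice.

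Transcripts of other cells were watched beside these values. The summed level of 11 excitatory markers in Vip nuclei was 950 to 1309 CPM in control and 819 to 1302 CPM in CUS mice. The 7 astrocyte markers summed to 244 to 655 and 355 to 1042 CPM. Both sums overlapped between groups. The sum of the 5 genes of striatal projection neurons outside the definition did not overlap between groups. It was 247 to 366 CPM in control and 379 to 535 CPM in CUS mice, with Adora2a at 0. Of the 5 genes, 1 was without overlap by itself, and no other list of cell-type markers had a sum without overlap. Most of that sum was Pde10a, at 305, 302, 237 and 317 CPM in control and 367, 426, 410 and 525 CPM in CUS mice (log2 fold change 0.60). The part of such transcripts in the differences above was not tested.

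Whether a change was larger or smaller in Vip nuclei than in other interneurons of the same mice was tested as an interaction with the pooled Sst, Pvalb and Ndnf nuclei. Of 4305 genes, 1 passed an FDR of 0.2 (0.0232%), and it was Gpc5. This heparan sulfate proteoglycan, a gene of mm10 chromosome 14 (115092215 to 116525179), stands on the list of astrocyte markers but is also read in neurons. Gpc5 was at 20.3, 58.8, 41.2 and 97.5 CPM in Vip nuclei of control mice and at 101, 53.3, 316 and 178 CPM in those of CUS mice. CUS replicate 2 lay within the control range and CUS replicate 3 far above it. The 62 Gpc5 UMIs were in 29 nuclei, and the 2 nuclei with most held 20 of them. CUS replicates 3 and 4 held 17 UMIs each. The log2 fold change was 1.56 in Vip nuclei and -0.55 in the other interneurons, each fitted alone. The interaction, fitted on both gates together, put the difference at 2.26 (standard error 0.46, FDR 0.0419 by edgeR). This difference was 1.62 without the members over 6000 UMIs (FDR 0.719) and was 1.47 against excitatory nuclei (FDR 0.997). In Vip nuclei alone the log2 fold change of Gpc5 was 0.18 without members of a doublet score above 0.2, and 1.50 without members that held a glial, endothelial or Slc17a7 UMI. Astrocyte markers were highest in CUS replicate 3 as well, at 1042 CPM with Gpc5 included, and their part in the difference was not tested. The test called 0 genes without CUS replicate 3 or without CUS replicate 4, and without control replicate 2 it called 3 others (Npy, Shank3 and Ano6).

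Bulk nuclear RNA of the mPFC gave a second look at the genes of the Vip subclass, in other mice and without choosing nuclei. In such samples fewer cells of a type and less RNA per cell cannot be told apart, and several of these genes are read in other cells too. Of 18394 genes tested by edgeR's quasi-likelihood test, 606 passed an FDR of 0.05 (3.29%). All 20 genes listed for the Vip subclass were tested and 1 passed, Htr3a, a share close to that of all genes. It was at 1.28, 1.48, 1.72 and 1.51 CPM in control and at 2.63, 2.37, 2.39, 2.29 and 2.79 CPM in CUS mice, with no overlap. Htr3a thus rose from a mean of 1.50 ± 0.178 CPM (SD, n = 4) to one of 2.49 ± 0.210 CPM (n = 5). Its log2 fold change was 0.73 ± 0.14 (SE), with an FDR of 0.0182 by edgeR. Without control replicate 2 or without CUS replicate 5 the gene no longer passed, and over all alternatives its FDR was 0.00049 to 0.0814. In Vip nuclei of the neocortex, by contrast, the log2 fold change of Htr3a was -0.04 (standard error 0.46) on 50 UMIs, and the 2 values were not compared by a test.

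Vip itself was at 12.6, 11.8, 10.3 and 12.9 CPM in control mice and at 16.7, 12.9, 16.4, 15.3 and 13.5 CPM in CUS mice of the bulk series. The lowest CUS mouse was level with the highest control mouse. The means were 11.9 ± 1.18 and 14.98 ± 1.72 CPM, and the log2 fold change of 0.33 ± 0.10 (SE) did not pass, at an FDR of 0.0749 by edgeR. The gene passed with 2 alternatives, DESeq2 (FDR 0.0361) and edgeR's likelihood ratio test (FDR 0.0334). Mybpc1 (0.46, FDR 0.0635) and Gpc3 (-0.68, FDR 0.0585) lay as close to the threshold. Mybpc1 passed with the same 2 alternatives as Vip. Gpc3, lower in CUS mice, passed with those 2, without TMM factors, with no filter on low counts, without control replicate 3 and without CUS replicate 2. Penk had a log2 fold change of -1.25 (FDR 0.0841), which leaned on control replicate 4 at 16.0 CPM, as the other control mice were at 3.59 to 4.96 CPM. Penk passed by the likelihood ratio test (FDR 0.0195), with no filter on low counts (FDR 0.0415) and without control replicate 3 (FDR 0.0253).

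Apart from Htr3a, the genes that identify or divide Vip cells did not pass in bulk. The log2 fold changes were -0.11 for Adarb2, -0.20 for Prox1, 0.06 for Igf1 and -0.40 for Calb2. Tac2 had a log2 fold change of 0.37 (FDR 0.162) and just failed to overlap, with 1.32 to 1.72 CPM in control and 1.75 to 2.10 CPM in CUS mice. The share of all bulk genes without overlap was not counted. In Vip nuclei the value of Tac2 was -0.81, the opposite sign. Crh was at -0.26 (FDR 0.645) and Cck at 0.24 (FDR 0.148), and both overlapped between groups. Region, age, mice, behavioral testing and library type differed between the bulk and the nuclei, so these values stand side by side without a test.

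**Figure D5:**
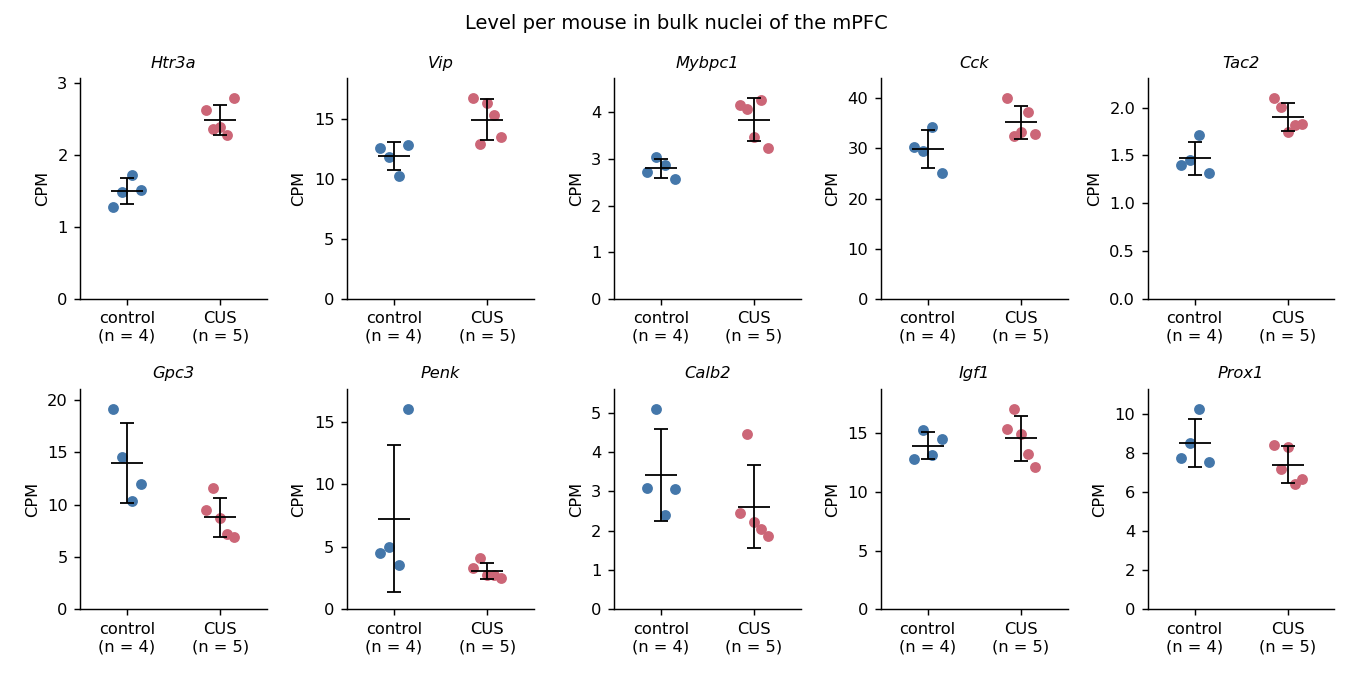
Level in CPM of 10 Vip subclass genes in bulk nuclei of the mPFC, 1 point per mouse, with the mean and SD of 4 control and 5 CUS mice. Htr3a is separated, from 1.28 to 1.72 CPM in control and 2.29 to 2.79 CPM in CUS mice, while Penk shows a single control mouse at 16.0 CPM.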

How the data were processed

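Nuclei of the neocortex (4 control and 4 CUS mice) were profiled by sNucDrop-seq, and bulk nuclear RNA of the mPFC (4 control and 5 CUS mice) was sequenced in other mice. The deposited files hold whole-number counts made by the authors, UMIs per gene and barcode for 5000 barcodes per mouse in the nuclei, and reads per gene in bulk, without normalization. According to the study's methods, reads were mapped to mm10. In the nuclei, exonic and intronic reads on the gene's strand were counted with Gencode vM13, and in bulk uniquely mapped reads were counted per gene by the authors' own programs. Intronic reads make long genes easier to detect. Positions are those in the bulk files.

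The mouse was the replicate, and groups came from the sample labels. UMIs of the members were summed per mouse. Genes whose sum exceeded 10% of the number of nuclei were tested with edgeR 4.0.16 in R 4.3.3 (quasi-likelihood test, TMM factors), at the study's FDR of 0.2 for nuclei and 0.05 for bulk, where genes were kept by filterByExpr. The study's likelihood ratio test was an alternative, as were DESeq2 1.42.0, no TMM factors, other filters on genes, other gates and each mouse left out. The study's batch term could not be fitted. Standard errors given for edgeR were calculated as the absolute log2 fold change divided by the square root of the test statistic. Doublets were scored per library with Scrublet in scanpy 1.11.5 (expected rate 0.1) but not removed, because the rule does not. Two-sided exact permutation tests compared shares. The share of nuclei with a gene was tested on nuclei thinned to 1000 UMIs and, as an alternative, unthinned, and the share of Vip nuclei, their depth and their doublet scores on unthinned nuclei. Sums over barcodes used Python 3.11.15. PCR copies were not removed from bulk reads. The test was checked on simulated data.

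The members, lists and rules were chosen with earlier results of these data known. Genes were named by rule. They are the genes of the definition and its markers, calls or the 5 smallest p per direction, the 3 smallest p of each list described, the 12 highest ratios to the next gate, interaction calls, and the Vip subclass in bulk. Other genes, such as the markers of other lineages, were added after their values were seen.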

Additional observations from a re-analysis of the deposited data

Results flagged for a closer look

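In 104 groups of mice, the highest or lowest mouse was checked against the rest by Dixon's ratio of its gap to the group's range, and 8 stood apart, where chance alone flags about 1 in 20 groups. In Vip nuclei of control mice, Penk was at 392 CPM in control replicate 3 and at 183 to 213 CPM in the others (ratio 0.855). Fkbp5 was at 146 CPM in control replicate 4 and at 20.3 to 36.8 CPM in the others (ratio 0.869), on 27 UMIs in all mice.

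In Vip nuclei of CUS mice, Sidt1 was at 373 CPM in CUS replicate 2 and at 240 to 261 CPM in the others (ratio 0.846), while Prox1 was at 472 CPM in CUS replicate 4 and at 267 to 298 CPM in the others (ratio 0.848). Gm32647 was at 291 CPM in CUS replicate 1 and at 0 to 21.0 CPM elsewhere (ratio 0.928), with 15 of its 29 UMIs in 1 nucleus. The share of Vip nuclei among nuclei with a Gad UMI was 4.30% in CUS replicate 4 and 3.52 to 3.62% in the other CUS mice (ratio 0.874).

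In bulk, Penk was at 16.0 CPM in control replicate 4 and at 3.59 to 4.96 CPM in the other control mice (ratio 0.89). Calb2 was at 4.46 CPM in CUS replicate 2 and at 1.86 to 2.45 CPM in the other CUS mice (ratio 0.772). The change of Gpc5 with CUS differed between Vip nuclei and other interneuron nuclei by 2.26 on the log2 scale, by the interaction test of the report.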

How the results depend on the processing

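Across 6 summary results and 65 values of single genes or shares, 1 summary result (the share of Vip nuclei) and 9 of the single values changed sign under at least 1 alternative. The number of genes called in Vip nuclei (1, Tox) was 0 with DESeq2, without TMM factors, with no filter on low counts, with a mean of 10 or more UMIs per mouse, without members holding a Slc17a7, glial or endothelial UMI, with a Scrublet score of at most 0.2, and without members over 6000 UMIs (added after the data were seen). Beside these counts of 0, the genes with an unadjusted p under 0.05 numbered 68, 190, 537, 71, 184, 153 and 183, in that order. The number called was 2 with Vip at 2 or more UMIs (Tox and Col25a1) and 2 with at least 1000 genes per nucleus (Tox and Gm32647). With each mouse left out it was 0 to 1. Tox passed without control replicate 1 or 4 and did not without any other mouse, and its log2 fold change was -2.65 to -0.97 where it was tested.

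The interaction (1 gene, Gpc5) gave 3 genes by the likelihood ratio test (Gpc5, Shank3 and Sidt1), 0 against the excitatory gate and 0 without members over 6000 UMIs, and 0 to 6 with a mouse left out, the 6 without CUS replicate 1. In bulk, the 1 Vip subclass call became 5 by the likelihood ratio test, 4 by DESeq2, 2 without TMM factors and 3 with no filter. Over all genes tested, the calls rose from 606 to 1330, 1413, 822 and 780, in that order. With no filter 30060 genes were tested, and otherwise 18394. The number of Vip subclass calls was 0 to 4 with a mouse left out. It was 0 without control replicate 2 (133 of all genes passed) or CUS replicate 5 (140 of all genes). It was 2 without CUS replicate 2 (607 of all genes) and 4 without control replicate 3 (1508 of all genes).

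With a replicate block, 0 genes passed in Vip nuclei (156 at an unadjusted p under 0.05) and 0 Vip subclass genes in bulk (238 of all genes passed). The numbers only name the mice. Deviations of mice with the same number correlated at -0.03 to 0.04 in the nuclei and 0.02 to 0.15 in bulk, and not every mouse correlated best with its own number.

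The share of Vip nuclei reversed with Gad nuclei as the denominator (0.581 points) and ranged from -0.0458 to 0.0100 with a mouse left out, positive without control replicate 4. Also reversed were the Htr3a share without thinning (-1.46 points) and Cxcl14 in bulk without TMM factors (-0.019). With a mouse left out, the values that reversed ranged from -6.52 to 2.64 points for the Cck share, -7.69 to 1.58 for the Igf1 share, and, as log2 fold changes, from -0.48 to 0.040 for Chrm3 in Vip nuclei and, in bulk, from -0.18 to 0.022 for Adarb2, -0.0093 to 0.31 for Chat, -0.075 to 0.10 for Cxcl14, -0.063 to 0.21 for Grpr and -0.26 to 0.047 for Npy2r. The causes were not tested. At this depth (288 nuclei, a median of 1600.5 UMIs), 7 of 20 peptide receptors and 8 of 25 genes of acetylcholine, serotonin and noradrenaline passed the filter, and whether the others are low or absent in Vip cells was not detectable.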
